A study of Homo sapiens with 8 samples.

Results

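The ceritinib-resistant lung adenocarcinoma line H3122-LR2 was compared with its parental line H3122 under each of 3 matched conditions. The comparison used 6 of the 8 arrays of the series, which formed 3 pairs of LR2 and parental cells that had the same agent. The pairs were cells without an agent, cells given 1000 nM crizotinib for 6 h and cells given 1000 nM ceritinib for 6 h. All arrays were of cells labelled as EML4-ALK lung adenocarcinoma, grown in RPMI with fetal bovine serum. The array labels give the resistant lines by name alone, and the sources used here do not say whether LR2 is 1 clone. The other resistant line, H3122-LR3, had an untreated and a ceritinib array and was used only to see where LR2 differed from it.

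Each line and agent had 1 array. A difference between the lines was therefore judged by how evenly it recurred under the 3 agents, and p-values measure only that spread, not the spread between separately grown cultures. Values are log2 probe set signals, and a difference of 1 is 2-fold. In every series of 3 values the order is untreated, crizotinib, ceritinib.

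EML4-ALK is a fusion that keeps the kinase part of ALK and signals through RAS and ERK to genes such as DUSP6, SPRY4 and CCND1. Crizotinib and ceritinib both inhibit that kinase, and in sensitive cells the ERK output genes fall within hours. Resistant derivatives of such lines can differ from their parent in the drug target, in bypass receptors, in detoxifying enzymes and in epithelial state.

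Both lines had the RNA profile of an epithelial lung line. All 8 epithelial and lung adenocarcinoma markers (among them EPCAM, KRT8, KRT18, NKX2-1 and NAPSA) were above the detection floor of 5.37 in all 6 arrays, with a mean level of 11.46 to 11.47 in parental and 11.45 to 11.56 in LR2 arrays. Of the fibroblast markers, 12 of 12 were below the floor in all 6 arrays, and of the leukocyte markers 10 of 13. Endothelial markers were below it for 6 of 11 (CDH5, KDR and EGFL7 were above) and neuroendocrine markers for 6 of 12 (CHGB, SYP, ENO2, UCHL1 and DDC were above). Array medians were 5.34 to 5.36 except for 5.46 in LR2 with ceritinib. In RNA from whole cultures, fewer cells of a type and less RNA per cell cannot be told apart.

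LR2 differed from parental cells in a steady set of genes that was visible with and without inhibitor. AKR1C2, an aldo-keto reductase that reduces steroids and reactive carbonyls, was at 8.71, 8.88 and 9.11 in parental cells and at 11.52, 11.63 and 11.55 in LR2. Every LR2 array was above every parental array, and the mean difference was 2.67 ± 0.09 (limma standard error, n = 3 pairs), or 6.35-fold, with a limma adjusted p of 2.46e-05. S100A9, a calcium-binding alarmin abundant in neutrophils and stressed epithelia, went the other way, from 9.27, 9.10 and 8.87 in parental cells to 6.55, 6.26 and 6.40 in LR2. The fall was 6.39-fold, or -2.68 ± 0.09 (limma adjusted p = 2.46e-05), again with no overlap. In LR3 S100A9 was lower still, at 4.34 without agent and 4.75 with ceritinib.

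Of 10280 genes tested, limma with the agent as a block called 2091 (20.3%), of which 1190 (11.6%) were higher and 901 (8.76%) lower in LR2. Most of these differences were small: the median size among called genes was 0.42, and 107 were at least 2-fold, 40 higher and 67 lower. A difference of 1 sign in 3 of 3 pairs was seen for 3198 genes higher in LR2 (31.1%) and 2381 lower (23.2%). The 3 LR2 arrays lay above the 3 parental arrays for 1873 genes (18.2%) and below them for 1419 (13.8%). Of the called genes 2090 had 1 sign in all 3 pairs. In all 3 pairs singly, 60 genes differed by more than 1, 23 higher and 37 lower.

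The count needed all 3 pairs. With 2 pairs the fit had too few arrays for most calls: limma called 49 genes without the untreated pair, 0 without the crizotinib pair and 0 without the ceritinib pair, while 2369, 2503 and 2947 genes had an unadjusted p under 0.05. When the LR3 arrays were added to steady the fit, 2329 genes were called, and leaving out 1 array gave 1161 without parental crizotinib, 1161 without LR2 crizotinib, 1315 without LR2 untreated, 1355 without LR2 ceritinib, 1506 without parental untreated and 2032 without parental ceritinib. LR3 had no crizotinib array, so the 2 fits without a crizotinib array are the same fit, without that pair. It is counted 2 times among these 6. Of the 40 genes with the largest differences, 39 kept their call in all 6 of these fits, and SPRY2 did not. Among smaller differences named below, the calls of BAD, BID, CDH1 and SLCO4A1 were lost in 5 of these fits, those of CDC25A and EHF in 4 and those of FGFR3 and MSMO1 in 3. Without the agent term limma called 1201 genes, and among genes named here the calls lost were those of SPRY2, GLCCI1, FGF9, FGFR3, ELF5, EHF, OVOL2, HOXB3, SERPINB5, DSP, CDC25A, E2F3, CCNE2, CENPA, WDR43, FBXO32, CCNG2, BMF, BBC3, BAD, LFNG, MSMO1, ABCC5, SLCO4A1 and SLC29A2. With no filter BID, BAD, MSMO1 and CDH1 lost theirs, with quantile normalization BAD and OVOL2, and with median centring OVOL2. The balance of directions depended on scaling: quantile normalization gave 1040 genes higher and 1253 lower (45.4% higher against 56.9% as deposited) and, for genes of 1 sign in 3 of 3 pairs, 2749 higher and 3157 lower.

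**Figure D1:**
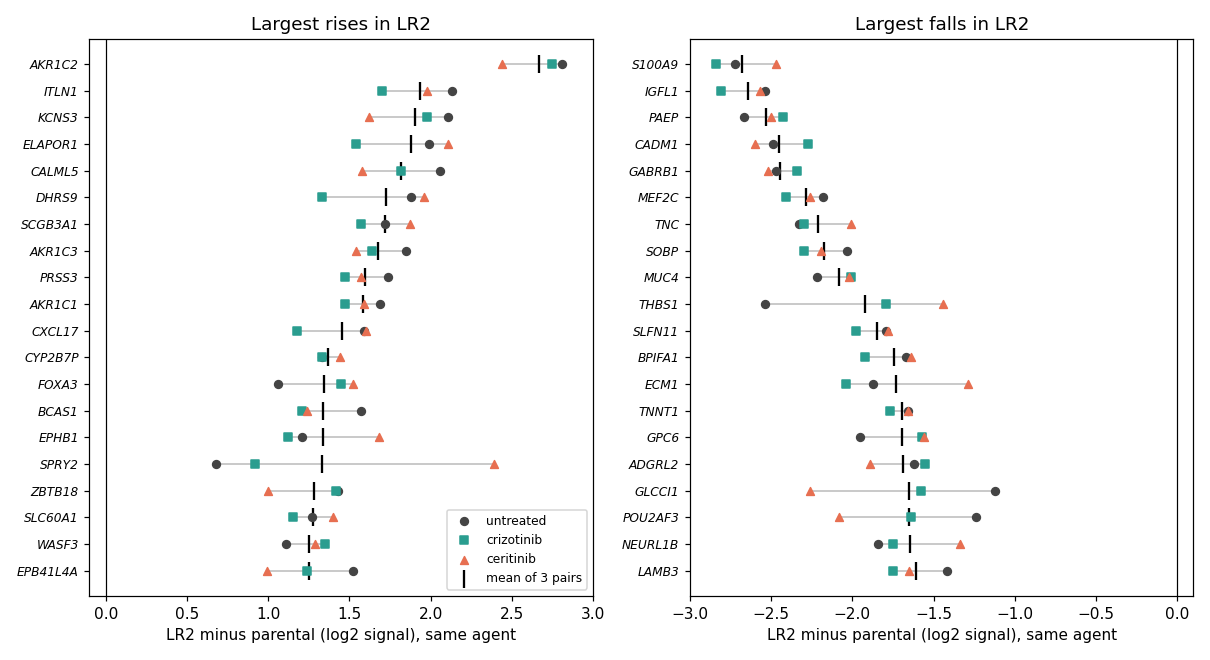
The LR2 minus parental difference (log2 signal, x axis) is plotted for the 20 genes with the largest rise (left) and the 20 with the largest fall (right), with a symbol for each agent and a bar at the mean of the 3 pairs. All 3 symbols of every gene lie on 1 side of 0; SPRY2 has the widest spread among the rises, from 0.68 without agent to 2.39 with ceritinib.

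The AKR1C genes led the rises. They encode reductases of steroids, prostaglandins and aldehydes, and lie next to each other on chromosome 10. AKR1C3 was at 7.97, 8.30 and 8.29 in parental cells and at 9.82, 9.94 and 9.83 in LR2, a 3.20-fold difference (1.68 ± 0.08). AKR1C1 was at 5.50, 5.73 and 5.71 against 7.19, 7.20 and 7.30, a 3.00-fold difference (1.58 ± 0.08). For all 3 genes the lines did not overlap, and the limma adjusted p was at most 0.000115. AKR1C2 in LR3 was at 11.25 and 11.10, and its difference between LR2 and LR3 was not called (0.38 ± 0.12, limma adjusted p = 0.0642). AKR1C1 and AKR1C3 were higher in LR2 than in LR3, by 0.54 and 0.50 (limma adjusted p = 0.0118 and 0.00966). These are near-identical paralogs, so how far each probe set also reads its neighbours is uncertain, and the second AKR1C3 probe set pointed the other way (mean of both 0.80).

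The 3 promoters are shown because these genes rose together and because their letters show how alike the paralogs are. Each runs from 250 bases before to 50 bases after the start in RefSeq GRCh38.p14, on the gene's own strand, with motif matches in capitals.
AKR1C1: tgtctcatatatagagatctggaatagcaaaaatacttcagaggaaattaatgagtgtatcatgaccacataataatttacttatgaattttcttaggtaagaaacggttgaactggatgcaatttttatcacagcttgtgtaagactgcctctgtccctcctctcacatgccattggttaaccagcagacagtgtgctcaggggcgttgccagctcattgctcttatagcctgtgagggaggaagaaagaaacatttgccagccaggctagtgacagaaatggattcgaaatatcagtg
AKR1C2: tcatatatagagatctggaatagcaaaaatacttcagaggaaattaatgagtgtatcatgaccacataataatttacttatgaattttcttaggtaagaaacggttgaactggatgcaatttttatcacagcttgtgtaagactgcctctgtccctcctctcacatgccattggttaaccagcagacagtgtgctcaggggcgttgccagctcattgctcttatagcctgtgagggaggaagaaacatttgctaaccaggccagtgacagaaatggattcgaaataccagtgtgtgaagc
AKR1C3: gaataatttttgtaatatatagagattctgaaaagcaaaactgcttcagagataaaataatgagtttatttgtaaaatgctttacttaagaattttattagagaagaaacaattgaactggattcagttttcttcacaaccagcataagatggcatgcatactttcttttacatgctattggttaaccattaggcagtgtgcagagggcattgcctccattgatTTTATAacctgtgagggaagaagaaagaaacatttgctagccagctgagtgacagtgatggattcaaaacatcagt
AKR1C1 lies at chr10:4963165-4963464 on the plus strand, AKR1C2 at chr10:5003808-5004107 on the minus strand, and the first listed AKR1C3 promoter at chr10:5048531-5048830 on the plus strand. Laid side by side without gaps at the best shift, AKR1C1 and AKR1C2 had the same base at 264 of 296 positions (89.2%). AKR1C3 matched them at 48.0% and 49.3%, but a comparison without gaps understates likeness wherever bases were inserted or lost. The motifs searched on both strands were the antioxidant response element core TGACNNNGC, the AP-1 site TGANTCA, the TATA box TATAAA and the CArG box, of which 13.3%, 7.71%, 11.5% and 1.29% of all 35116 RefSeq promoter windows hold a match. The AKR1C1 and AKR1C2 windows held none of these letters, and AKR1C3 held a TATA box on the opposite strand, 26 bases before the start, marked in capitals. Sites outside these windows were not searched.

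Genes that the antioxidant factor NRF2 is known to control differed in both directions, and a part of NRF2 in the AKR1C rise was not tested. Of 31 tested aldo-keto reductase and NRF2 target genes, 6 rose and 4 fell (32.3% called, against 20.3% of all genes), and the list median was -0.03 beside 0.02 over all genes. PGD, of the pentose phosphate pathway, rose by 0.66 ± 0.08 (limma adjusted p = 0.00211), and the carbonyl reductases CBR1 and CBR3 by 0.46 and 0.45. AKR7A2 fell by 0.51, the glutathione peroxidase GPX2 by 0.40, the heme oxygenase HMOX1 by 0.39 and the epoxide hydrolase EPHX1 by 0.27. NQO1 and TXNRD1, both classical NRF2 targets, were at 0.08 ± 0.07 and -0.05 ± 0.07 and were not called (limma adjusted p = 0.508 and 0.668); they were picked out by name after their values were seen.

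Secreted airway proteins were changed in both directions. Of 24 tested airway secretory and surfactant genes, 8 rose and 7 fell (62.5% called, beside 20.3% of all genes), with a median of -0.02. ITLN1, a lectin that binds microbial glycans, was at 7.07, 7.56 and 7.37 in parental cells and at 9.20, 9.26 and 9.35 in LR2 (1.94 ± 0.10, 3.83-fold, limma adjusted p = 0.000112). The secretoglobin SCGB3A1 was at 8.89, 8.94 and 8.85 against 10.61, 10.51 and 10.72 (1.72 ± 0.08, 3.29-fold, limma adjusted p = 0.000102). Neither gene's lines overlapped.

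On the falling side stood PAEP, or glycodelin, a secreted lipocalin, at 7.01, 7.04 and 7.0 in parental cells and at 4.34, 4.61 and 4.50 in LR2. It fell 5.79-fold (-2.53 ± 0.08, limma adjusted p = 2.46e-05) and was at 6.70 and 6.87 in LR3, so that LR2 was lower than LR3 by -2.34 (limma adjusted p = 1.51e-05). BPIFA1, an antimicrobial protein of airway lining fluid, was at 9.76, 9.86 and 9.69 against 8.09, 7.94 and 8.05, a 3.35-fold fall, and was at 6.30 and 6.27 in LR3. Both genes separated the lines with no overlap. The membrane mucin MUC4 fell 4.24-fold, from 9.02, 9.20 and 9.26 to 6.80, 7.19 and 7.24, or by 1.12 instead of 2.08 on the log2 scale when its 2 probe sets were averaged. In LR3 MUC4 was at 6.63 and 6.48. MUC1 fell by 0.75 ± 0.08 and the small mucin-like MUCL1 rose by 0.63 ± 0.09.

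**Figure D2:**
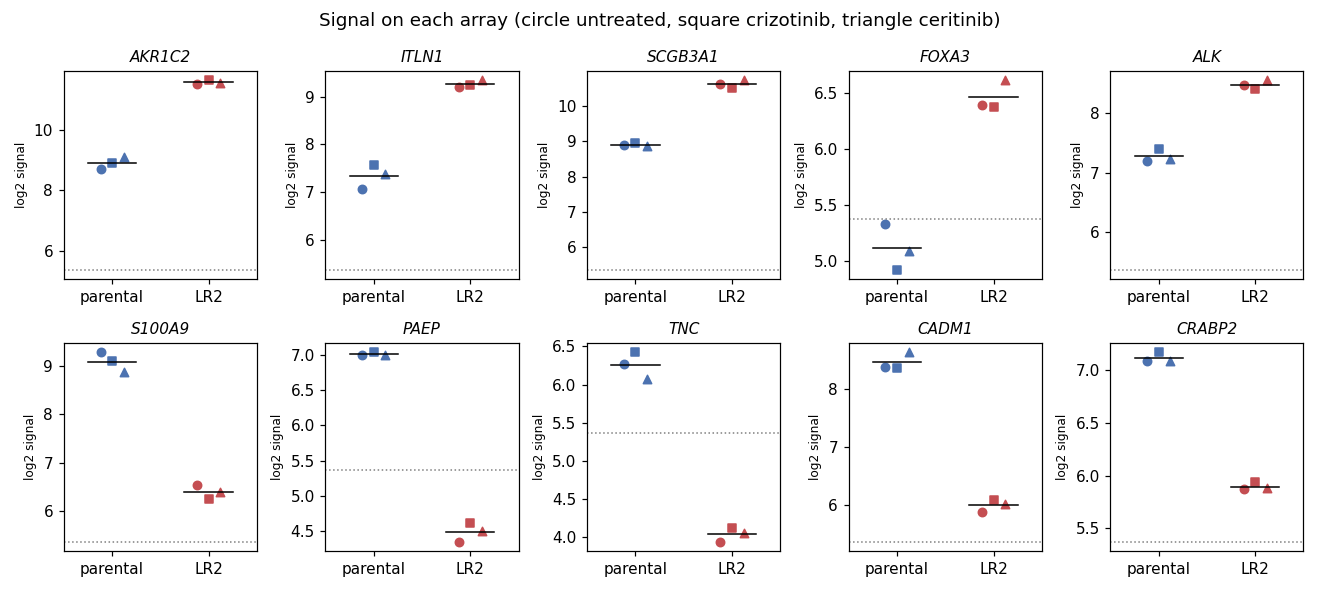
Each panel gives the log2 signal (y axis) of 1 gene on the 3 parental arrays (blue) and the 3 LR2 arrays (red), with a bar at the mean and the dotted detection floor at 5.37. The 2 lines do not overlap for any of the 10 genes, and PAEP and TNC lie below the floor in LR2 while FOXA3 lies below it in parental cells.

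Transcription factors of lung and gut epithelium were more often higher than lower. Of 26 tested members 9 rose and 1 fell (beside 11.6% of all genes higher and 8.76% lower), with a median of 0.12. FOXA3, a forkhead factor of endoderm and goblet cells, was at 5.33, 4.92 and 5.09 in parental cells and at 6.39, 6.37 and 6.61 in LR2. It rose 2.54-fold (1.34 ± 0.10, limma adjusted p = 0.000612), from below the floor, and was at 4.42 and 4.45 in LR3. The ETS factor ELF5 rose by 1.23 ± 0.18 and its relative EHF by 0.68 ± 0.14, and ID4, an inhibitor of basic helix-loop-helix factors, by 0.78 ± 0.08. ELF5 rose with the inhibitors in parental cells too (4.21, 5.69 and 5.67 against 5.68, 7.32 and 6.27 in LR2), so the lines overlapped.

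The HOXB genes, a row of neighbouring patterning genes on chromosome 17, gave the only HOX calls. Of 14 tested HOX genes, 3 rose and 0 fell, a share of 21.4% called that was near the 20.3% of all genes. HOXB3 was at 5.64, 5.89 and 6.34 in parental cells and at 6.41, 7.39 and 7.10 in LR2 (1.01 ± 0.15, limma adjusted p = 0.00535). The mean over the 4 probe sets of HOXB3 was 0.56. HOXB5 rose by 0.91 ± 0.10 and HOXB6 by 0.90 ± 0.09. LR3 arrays were below the parental ones for all 3, and LR2 exceeded LR3 by 2.51, 2.64 and 1.63 (limma adjusted p = 8.75e-05, 2.41e-05 and 0.000148).

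Retinoid genes moved both ways. Of 18 tested members 4 rose and 4 fell (44.4% called, beside 20.3% of all genes), and the median was -0.06. DHRS9, a retinol dehydrogenase, was at 5.95, 5.38 and 5.47 in parental cells and at 7.83, 6.71 and 7.43 in LR2, a 3.30-fold rise (1.72 ± 0.13, limma adjusted p = 0.00049). DHRS3, a retinal reductase, rose by 0.94 ± 0.08 (0.59 over its 3 probe sets). CRABP2, which carries retinoic acid to its nuclear receptors, was at 7.09, 7.17 and 7.09 against 5.87, 5.94 and 5.88. Its lines did not overlap, it fell 2.33-fold (limma adjusted p = 0.000175), and it was at 7.79 and 7.81 in LR3.

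Among squamous and cornified genes 4 of 9 rose and 1 fell (55.6% called, beside 20.3% of all genes). CALML5, a calmodulin-like protein of differentiating keratinocytes, was at 8.04, 8.37 and 8.51 against 10.10, 10.19 and 10.09 (1.82 ± 0.10, 3.53-fold, limma adjusted p = 0.000166). The keratin genes KRT4 and KRT15 rose by 0.82 ± 0.07 and 0.75 ± 0.11, and the serpin SERPINB5 by 0.82 ± 0.09 (0.47 over its 3 probe sets). Of 11 tested genes of the S100 list 5 were called (45.5%, beside 20.3% of all genes): S100A9, S100A4 and S100A2 fell (by 2.68, 1.03 and 0.82), and S100PBP and S100P rose. S100PBP encodes a binding partner and not an S100 protein, and its call was lost with the mean of its 3 probe sets (0.16 instead of 0.43), of which 1 pointed the other way.

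Called genes of the extracellular matrix and of cell adhesion were mostly lower in LR2. Of 37 tested matrix, laminin, integrin and protease genes, 14 fell and 3 rose, against 8.76% of all genes lower, and the median was -0.25. TNC, or tenascin C, a matrix glycoprotein, was at 6.27, 6.42 and 6.07 in parental cells and at 3.94, 4.12 and 4.06 in LR2 (-2.21 ± 0.09, a 4.64-fold fall, limma adjusted p = 4.01e-05). THBS1, or thrombospondin 1, was at 6.83, 5.88 and 5.74 against 4.29, 4.09 and 4.30, and fell 3.79-fold (limma adjusted p = 0.00128). Its parental level was lower with either inhibitor while the LR2 level was low throughout, so the pair difference was -2.54 without agent and -1.44 with ceritinib. The laminin chain LAMB3, part of the basement membrane anchor of epithelia, fell 3.05-fold from 6.50, 6.54 and 6.42 to 5.08, 4.79 and 4.77. The protease inhibitor SERPINE2 fell 3.02-fold from 8.41, 8.24 and 8.48 to 6.79, 6.72 and 6.83. All 4 genes separated the lines with no overlap. The 3 members that rose were the trypsinogen PRSS3 (1.59 ± 0.08), the integrin chain ITGAV (0.63) and the membrane protease TMPRSS4 (0.37).

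Of 22 tested epithelial junction and mesenchymal genes, 7 fell and 0 rose (31.8% called, beside 20.3% of all genes called and 8.76% lower), with a median of -0.15. The adhesion molecule CADM1 was at 8.37, 8.36 and 8.62 in parental cells and at 5.88, 6.09 and 6.02 in LR2 (-2.45 ± 0.09, a 5.48-fold fall, limma adjusted p = 2.46e-05), with no overlap. The desmosome protein DSP fell by 1.37 ± 0.11, the tight junction protein CLDN1 by 1.18 ± 0.10 and the cadherin CDH3 by 0.76 ± 0.07. E-cadherin, CDH1, was at 10.40, 10.46 and 10.45 against 10.08, 10.17 and 10.17, a fall of 0.30 ± 0.07 (limma adjusted p = 0.0266); this call was also lost with the mean of its 2 probe sets and with no filter on dim genes. The mesenchymal marker VIM was between 2.74 and 3.06 in the 6 arrays, below the floor and not tested.

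Of 15 tested potassium channel and neurotransmitter receptor genes 4 rose and 3 fell (46.7% called, beside 20.3% of all genes). The GABA receptor subunit GABRB1 was at 6.03, 5.80 and 5.95 in parental cells and at 3.56, 3.46 and 3.43 in LR2 (5.44-fold lower, limma adjusted p = 2.46e-05). In the list the potassium channel subunit KCNS3 moved in the opposite direction, from 6.51, 7.21 and 7.20 to 8.62, 9.19 and 8.82, a 3.74-fold rise (limma adjusted p = 0.000161). Outside it, the transcription factor MEF2C, known from muscle and neurons, was at 6.10, 6.58 and 6.59 against 3.92, 4.17 and 4.33 (4.87-fold lower). MEF2C was at 4.10 and 4.65 in LR3. TNNT1, slow skeletal troponin T, was at 8.41, 8.66 and 8.61 against 6.75, 6.89 and 6.95 (3.24-fold lower) and at 8.50 and 8.55 in LR3. For all 4 genes the lines did not overlap.

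SLFN11, whose product blocks stressed replication forks and is known for sensitizing cells to DNA-damaging drugs, fell 3.60-fold, from 5.80, 5.74 and 5.92 to 4.01, 3.76 and 4.14 (limma adjusted p = 5.19e-05). Further large falls, each called and of 1 sign in 3 of 3 pairs, were IGFL1 (6.23-fold), SOBP (4.51-fold), ECM1 (3.33-fold), the proteoglycan GPC6 (3.23-fold), the adhesion receptor ADGRL2 (3.22-fold), GLCCI1 (3.15-fold), POU2AF3 (3.15-fold) and the ubiquitin ligase NEURL1B (3.12-fold). Further large rises were ELAPOR1 (3.68-fold), the mucosal chemokine CXCL17 (2.74-fold), the pseudogene CYP2B7P (2.58-fold), BCAS1 (2.53-fold), the repressor ZBTB18 (2.43-fold), the transporter SLC60A1 (2.42-fold), the actin regulator WASF3 (2.38-fold) and EPB41L4A (2.38-fold). CYP2B7P resembles a functional cytochrome gene, so what its probe set reads is uncertain.

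Of the 20 largest falls 10 had an LR2 mean below the floor, and of the 20 largest rises 2 had a parental mean below it, so those sizes are less certain. The same limit applies to other genes named in this report. SLC22A4, PSMB9, EPHB4, MUCL1 and ELF5 had a parental mean below the floor, and HLA-DMB and IFITM1 an LR2 mean below it. IGFL1, LAMB3, PAEP and SOBP were at least 1 above the floor in every parental array and below it in every LR2 array, and no gene did the reverse. The mean of all probe sets of a gene gave differences more than 1.5 times smaller for ELAPOR1 (0.76), AKR1C3 (0.80), EPHB1 (0.62), ZBTB18 (0.65), EPB41L4A (0.66), GABRB1 (-1.28), MEF2C (-1.45), TNC (-1.0), SOBP (-0.74), MUC4 (-1.12), THBS1 (-0.87), ECM1 (-0.90) and GPC6 (-0.72). In ELAPOR1, AKR1C3, EPHB1, SOBP and GPC6, 1 probe set pointed the other way. The mean difference was smaller by less than 1.5 times for AKR1C2 (1.82), CADM1 (-1.75, with 1 of 6 probe sets opposite) and LAMB3 (-1.08), among others. For PAEP, GLCCI1, TNNT1 and CYP2B7P it was larger.

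The drug target was higher in LR2. ALK was at 7.19, 7.39 and 7.23 in parental cells and at 8.47, 8.41 and 8.55 in LR2, with no overlap and a 2.31-fold rise (1.21 ± 0.09, limma adjusted p = 0.000437). It was at 8.10 and 8.09 in LR3, and LR2 exceeded LR3 by 0.37 (limma adjusted p = 0.0283). Whether these probe sets lie in the part of ALK that the fusion keeps was not established. EML4, the fusion partner, was at 9.20, 9.14 and 9.14 against 8.96, 9.04 and 9.12 and was not called (-0.12 ± 0.08, limma adjusted p = 0.314).

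The series carries FGFR3 in its title. In LR2 this fibroblast growth factor receptor was at 7.65, 7.81 and 7.96, against 7.25, 7.40 and 7.68 in parental cells, so the lines overlapped. The paired difference was 0.36 ± 0.07, or 1.29-fold (limma adjusted p = 0.0156); the call was lost without the agent term and in 3 of the 6 fits without 1 array. FGFR3 was at 8.48 and 8.70 in LR3, above LR2 by 0.77 (LR2 minus LR3 -0.77, limma adjusted p = 0.000928). The ligand FGF9 fell by 0.87 ± 0.08, or by 0.45 when its probe sets were averaged. FGFR1 (-0.10 ± 0.08) and FGFR4 (-0.05 ± 0.07) were not called, and FGFR2 was below the floor in all 6 arrays.

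Several other growth factor receptors were not called or not tested. ERBB2 (0.03 ± 0.07), ERBB3 (0.20 ± 0.08), MET (0.06 ± 0.12) and IGF1R (-0.05 ± 0.09) were not called, with limma adjusted p of 0.131 to 0.79. EGFR, KIT, AXL, INSR and the efflux pump ABCB1 did not pass the filter, with a highest value of 5.37 for EGFR. Whether they differed between the lines was therefore not tested. The Eph family, receptors of membrane-bound ephrins, had 3 of 13 members higher and 2 lower (38.5% called, beside 20.3% of all genes). EPHB1 was at 6.26, 6.16 and 6.03 in parental cells and at 7.47, 7.28 and 7.71 in LR2 (1.34 ± 0.12, 2.53-fold, limma adjusted p = 0.000876), with no overlap, and at 4.86 and 5.12 in LR3. EPHB4 rose by 0.74 ± 0.07, but by 0.19 over its 5 probe sets, of which 1 pointed the other way, and the ligand EFNB2 fell by 1.0 ± 0.08. Of 15 tested drug transporters 4 rose and 2 fell, so 6 of 15 were called, beside 20.3% of all genes: the organic cation transporter SLC22A4 rose by 1.06 ± 0.11, the efflux pump ABCC5 by 0.61 ± 0.07, the nucleoside transporter SLC29A2 by 0.57 ± 0.11 and the efflux pump ABCG2 by 0.39, while SLCO4A1 fell by 0.59 ± 0.10 and SLC67A1 by 0.40. The probe set means were smaller for SLC29A2 (0.23, with the call lost), ABCG2 (0.19, with 1 of 2 probe sets opposite) and SLCO4A1 (-0.33).

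Called cell cycle genes differed in direction between phases. The shares called in either direction were not far above that of all genes, but nearly all calls of a phase had 1 direction. Of 56 tested G1/S and DNA replication genes 15 rose and 0 fell (26.8% called, beside 20.3% of all genes called and 11.6% higher), with a median of 0.20. CDK6, the G1 kinase that partners D-type cyclins, was at 6.43, 6.26 and 6.20 in parental cells and at 7.06, 6.95 and 7.11 in LR2 (0.74 ± 0.08, limma adjusted p = 0.00196), with no overlap. E2F3, a transcription factor of S phase entry, was at 8.34, 7.81 and 7.63 against 8.86, 8.37 and 8.84 (0.76 ± 0.14), also with no overlap. CCNE2 rose by 0.71 ± 0.11 and CDC25A by 0.83 ± 0.21, though both overlapped between the lines, with parental levels that were lower under the inhibitors. Of 55 tested G2/M and mitosis genes 14 fell and 1 rose (27.3% called, beside 20.3% of all genes called and 8.76% lower), with a median of -0.14. DLGAP5, a spindle protein, was at 9.27, 9.69 and 9.61 against 8.55, 9.10 and 8.88 (-0.68 ± 0.07, limma adjusted p = 0.0018), and CENPA, the centromeric histone, fell by 0.62 ± 0.08. The proliferation marker MKI67 was not called (-0.11 ± 0.07, limma adjusted p = 0.326).

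Among FOXO targets and growth arrest genes, 10 of 30 fell and 0 rose (33.3% called), beside 8.76% lower over all genes, with a median of -0.22 (-0.27, -0.255 and -0.285 by pair). Many of them rise when growth signalling is blocked. FBXO32, a ubiquitin ligase, was at 6.53, 8.37 and 8.32 in parental cells and at 5.78, 7.36 and 6.52 in LR2 (-1.19 ± 0.18, limma adjusted p = 0.00614), and the lines overlapped, with the parental level low only without agent. CDKN1C, an inhibitor of cyclin-dependent kinases, was at 6.73, 7.39 and 7.23 against 5.81, 6.26 and 6.15 (-1.04 ± 0.08, limma adjusted p = 0.000506), with no overlap. TXNIP fell by 0.93 ± 0.14 and CCNG2 by 0.89 ± 0.12 (0.55 over its 5 probe sets, of which 1 was opposite). In the BCL2 family the pro-apoptotic genes BMF and BBC3 fell by 0.76 ± 0.12 and 0.50 ± 0.09 (BBC3 by 0.31 over its 2 probe sets), while BID and BAD, also pro-apoptotic, rose by 0.30 ± 0.08 each; 5 of 19 members were called (26.3%, beside 20.3% of all genes).

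**Figure D3:**
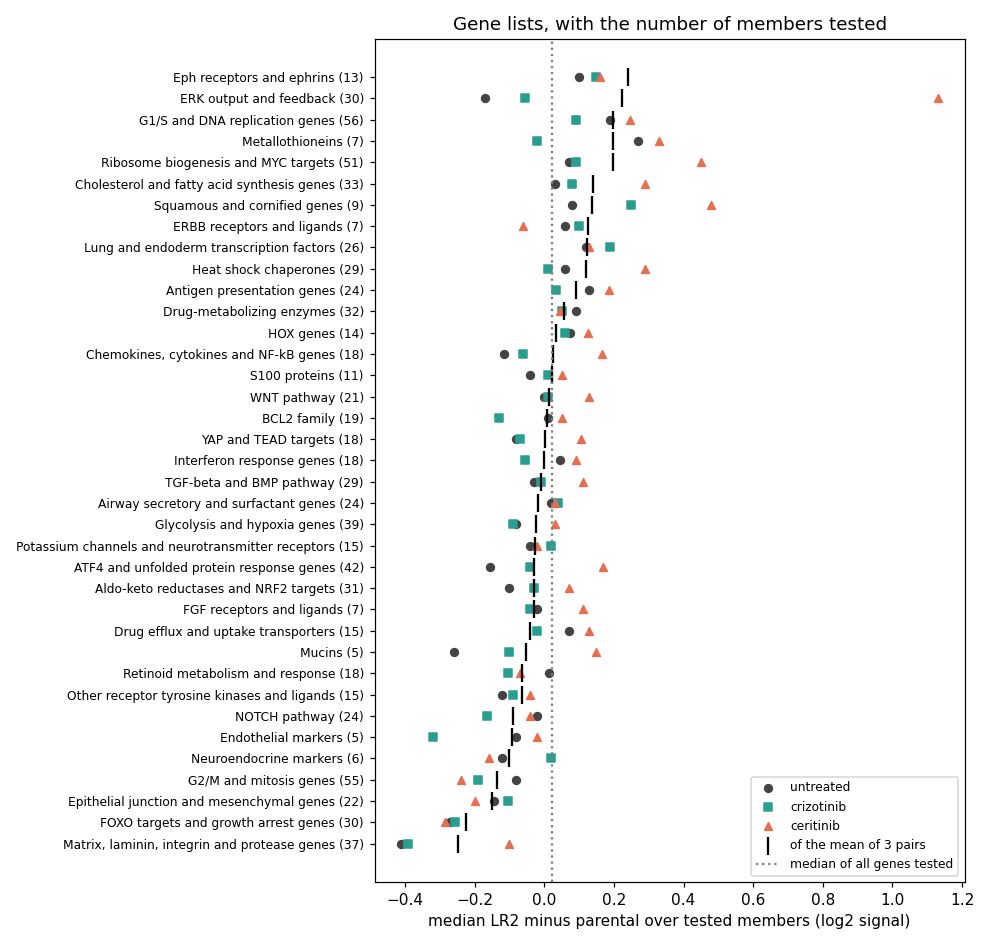
For each list with at least 5 tested members (number in brackets), symbols mark the median LR2 minus parental difference (log2 signal, x axis) in each pair, and the black bar the median of the members' means. Matrix and FOXO lists lie lowest in the mean, at -0.25 and -0.22, and the ERK output list stands out by its ceritinib symbol at 1.13.

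Smaller groups held single strong genes. Of 18 tested interferon response genes 4 rose and 3 fell (38.9% called, beside 20.3% of all genes), with IFITM1 at 6.55, 6.73 and 6.53 against 4.97, 5.49 and 5.18 (2.62-fold lower, limma adjusted p = 0.000257) and IFITM2 lower by 1.02 ± 0.08, while OAS1 rose by 0.65 ± 0.09 (0.39 over its 4 probe sets). Of 24 tested antigen presentation genes 6 rose and 2 fell (33.3% called). The immunoproteasome subunit PSMB9 was at 5.07, 5.29 and 5.23 against 6.23, 6.12 and 6.55 (1.10 ± 0.10, limma adjusted p = 0.00114), and HLA-DMB, which loads class II molecules, fell by 1.01 ± 0.09. Over all their probe sets these differences were 0.62 for PSMB9, with 1 of 3 opposite, and -0.53 for HLA-DMB. In the WNT list (3 higher, 1 lower of 21, or 19.0% called) the R-spondin receptor LGR4 fell by 1.32 ± 0.08, or by 0.76 when its probe sets were averaged. In the NOTCH list (4 higher, 3 lower of 24, or 29.2% called) the receptor-modifying LFNG fell by 0.90 ± 0.08 and DTX4 rose by 0.75 ± 0.08.

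Most metabolic, stress and signalling lists had a share of calls between 5.56% and 27.3%, around the 20.3% of all genes. Cholesterol and fatty acid synthesis genes had 7 higher and 2 lower of 33, with the desaturase FADS1 lower by 0.94 ± 0.08 and MSMO1 higher by 0.54 ± 0.14. Glycolysis and hypoxia genes had 3 higher and 6 lower of 39, led by the collagen prolyl hydroxylase P4HA1 (-0.92 ± 0.09), the oxidoreductase ERO1A (-0.80 ± 0.07) and NDRG1 (-0.75 ± 0.08). ATF4 and unfolded protein response genes had 1 higher and 2 lower of 42, and heat shock chaperones 3 higher and 2 lower of 29, with DNAJB4 lower by 1.10 ± 0.10. Chemokine, cytokine and NF-kB genes had 1 call among 18, PTGES. TGF-beta and BMP genes had 4 higher and 2 lower of 29, and YAP and TEAD targets 1 higher and 3 lower of 18. Drug-metabolizing enzymes had more calls, 9 higher and 3 lower of 32 (37.5%), with the glutathione transferases GSTA4 higher by 0.79 ± 0.07 and GSTM3 lower by 0.88 ± 0.09 (by 0.34 over its 3 probe sets, of which 1 was opposite). Of 7 metallothionein list genes 3 rose and 1 fell (57.1%), and MT1X rose by 0.60 ± 0.07.

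Ribosome biogenesis and MYC target genes had 9 higher and 2 lower of 51 (21.6% called, near the 20.3% of all genes), with a median of 0.20 that was uneven by pair (0.07, 0.09 and 0.45). WDR43, a ribosome assembly factor, showed this pattern, at 8.49, 7.70 and 7.58 in parental cells and at 8.97, 8.31 and 8.92 in LR2. The parental level was lower with both inhibitors, and the LR2 level with crizotinib but hardly with ceritinib.

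The ERK output genes differed between the lines mainly in the ceritinib pair. Of 30 tested members limma called 1 across the 3 pairs, SPRY2 (3.33%, beside 20.3% of all genes). DUSP6, the phosphatase that limits ERK, was at 12.41, 7.93 and 7.39 in parental cells and at 11.79, 7.26 and 11.51 in LR2. SPRY4, a feedback inhibitor of the pathway, was at 7.07, 3.81 and 4.08 against 7.54, 3.81 and 7.23. In both genes the signal was low with crizotinib in both lines and with ceritinib in parental cells, while the LR2 array with ceritinib was near the untreated level. Across the list, 18 members fell by more than 1 with crizotinib and 20 with ceritinib in parental cells, 19 with crizotinib in LR2, and 1 with ceritinib in LR2 (EGR1, by 1.48). The list median of the LR2 minus parental difference was -0.17 without agent, -0.055 with crizotinib and 1.13 with ceritinib, and 17 members exceeded 1 in the ceritinib pair against 0 in the other pairs.

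SPRY2, a feedback inhibitor like SPRY4, was the called member. It was at 8.58, 7.07 and 7.03 in parental cells and at 9.26, 7.99 and 9.42 in LR2, so it was higher by 0.68, 0.92 and 2.39. The mean was 1.33 ± 0.29 (limma adjusted p = 0.0217), the lines overlapped, and the call was lost in 3 of the 6 fits without 1 array. SPRY2 lies in a stretch of 20 neighbouring genes on chromosome 13, of which 10 were called higher and 3 lower.

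**Figure D4:**
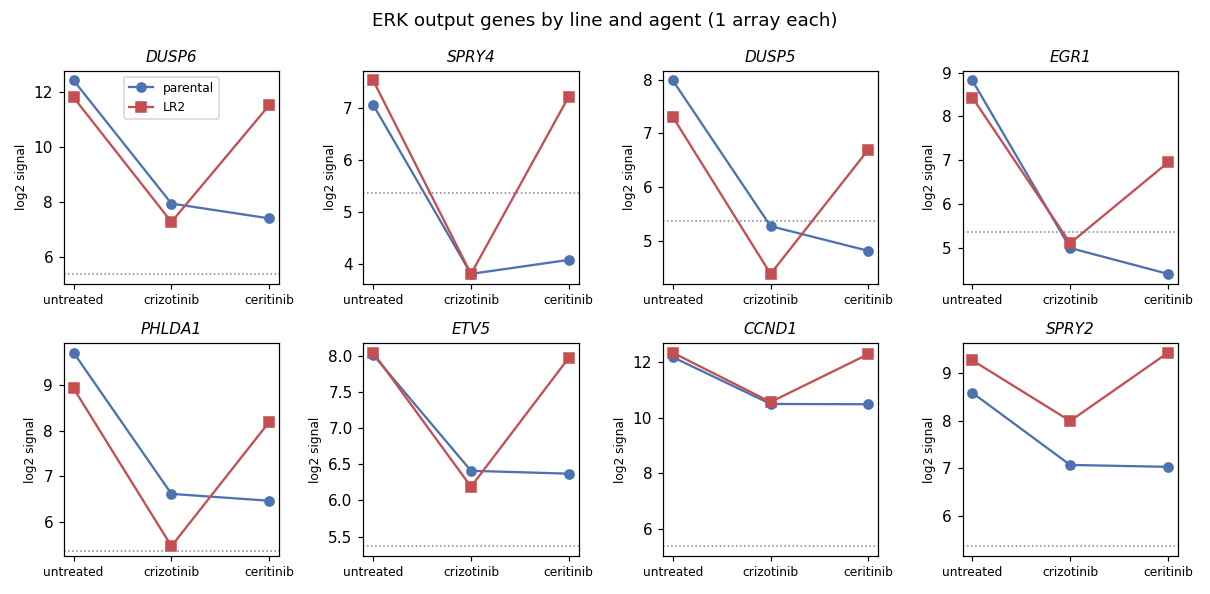
Log2 signal (y axis) of 8 ERK output genes is joined by lines across the 3 agents for parental (blue circles) and LR2 cells (red squares), 1 array per point, with the dotted floor at 5.37. Both lines drop with crizotinib, and with ceritinib the parental points stay low while LR2 points return toward the untreated level, for DUSP6 to 11.51 against 7.39.

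EGR1, an immediate early transcription factor, was at 8.82, 5.0 and 4.41 in parental cells and at 8.43, 5.11 and 6.95 in LR2, between the low and the untreated level with ceritinib. Its promoter is shown, as a gene picked after its values were seen, because it carries CArG boxes, the sites of the serum response factor through which ERK signalling is known to act.
EGR1: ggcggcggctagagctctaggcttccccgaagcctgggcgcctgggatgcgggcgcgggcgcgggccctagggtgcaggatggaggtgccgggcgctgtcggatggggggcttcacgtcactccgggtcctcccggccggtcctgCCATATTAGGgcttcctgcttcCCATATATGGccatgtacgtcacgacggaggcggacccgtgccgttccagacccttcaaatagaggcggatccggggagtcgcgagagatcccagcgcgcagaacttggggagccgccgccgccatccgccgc
This window is chr5:138465229-138465528 on the plus strand (RefSeq GRCh38.p14). The capitals mark 2 CArG boxes that begin 105 and 83 bases before the start, a motif found in 1.29% of all promoter windows. The DUSP6 and PHLDA1 windows held none of the motifs searched, and SPRY4 held 1 antioxidant response element core.

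Tests over genes could decide little about the dependence on agent. The first model below counted crizotinib and ceritinib as 1 condition, so a difference seen only with ceritinib went into its error. In a limma model of line by any inhibitor, 0 genes were called and 245 had an unadjusted p under 0.05; the 5 with the lowest p, none called, were THBS1, ERCC4, AKAP7, OVOL2 and CABLES1. When the ceritinib pair was set against the other 2 pairs, a comparison added after the values were seen, 0 genes were called by limma (lowest adjusted p = 0.117) and 997 had an unadjusted p under 0.05, 830 of them higher. DUSP6 had a difference of 4.77 in this comparison. This comparison rests on 1 pair and left few residual degrees of freedom, so the lack of calls cannot show that the pairs were alike. The LR2 array of that pair also had the highest median of the 6. In that pair the median gene differed between the lines by 0.09, against 0.01 and -0.02 in the other pairs. Without that pair, 0 genes were called for the line difference, as given above.

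Small shifts of whole chromosome stretches ran through the calls. Tested genes were placed in RefSeq order, and windows of 20 neighbours with at least 10 called in 1 direction were merged. This gave 19 stretches, 13 higher and 6 lower in LR2, with 640 genes (6.23% of those placed) and 343 of the 2090 placed calls (16.4%). The median difference of each stretch had 1 sign in all 3 pairs. These windows were chosen by their calls, so the counts describe them and test nothing. With quantile normalization the stretches were 10 higher and 13 lower, and with median centring 11 and 11.

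Chromosome 2 held the longest. From PPP1R1C to IKZF2, 40 of 70 tested genes were called higher and 2 lower, with medians of 0.28, 0.305 and 0.47 in the 3 pairs; IDH1, the cytosolic isocitrate dehydrogenase, rose most (1.09 ± 0.07), followed by HECW2 and CASP8. From NMI to SP9, 27 of 50 were higher, including DHRS9, while from TSN to MCM6, which comes before it in gene order, 16 of 30 were lower with a median of -0.35. Over all of chromosome 2, 25.7% of tested genes were higher. LR3 medians against the same parental arrays were 0.07 and 0.12 in the first stretch (untreated and ceritinib), and 22 of its 70 genes were called higher in LR2 than in LR3 and 1 lower.

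Chromosome 14 was mainly lower, with 29.4% of its tested genes called lower. From VCPKMT to HIF1A 25 of 50 genes were lower, from CHURC1 to SIPA1L1 18 of 30, and from COQ6 to FBLN5 27 of 50, with medians of -0.28, -0.36 and -0.29. At the far end, from EVL to MTA1, 26 of 50 were higher (median 0.32), among them WARS1, the tryptophanyl-tRNA synthetase. ERO1A and DLGAP5, named above among hypoxia and mitosis genes, lie in the first of the lower stretches. In LR3 the 3 lower stretches had medians of -0.355 to -0.215, and EVL to MTA1 had 0.07 and 0.08.

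On chromosome 8, from LRRCC1 to COX6C, 25 of 40 genes were higher (median 0.36), and LR3 medians there were 0.045 and 0.01. On chromosome 6, the stretch from TMEM14B to H1-3 (22 of 40 higher) held E2F3 and ID4, that from HLA-DMB to ILRUN 14 of 30 higher and that from ADGRF5 to KIAA1586 MCM3 and GSTA4. Several members of the lists above thus lie in shifted stretches, and the part of position in their differences was not tested. On chromosome 13, from BORA to TGDS, 10 of 20 genes were higher and 3 lower, with medians of 0.27, 0.355 and 0.48 in LR2 against -0.36 and -0.22 in LR3. SPRY2 and UCHL3 (0.99 ± 0.09) led this stretch, and 16 of its 20 genes were called higher in LR2 than in LR3. THBS1 and BMF lie in a lower stretch of chromosome 15 (FAM98B to GCHFR, 10 of 20), and GLCCI1 in one of chromosome 7 (CYTH3 to SCIN, 10 of 20).

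**Figure D5:**
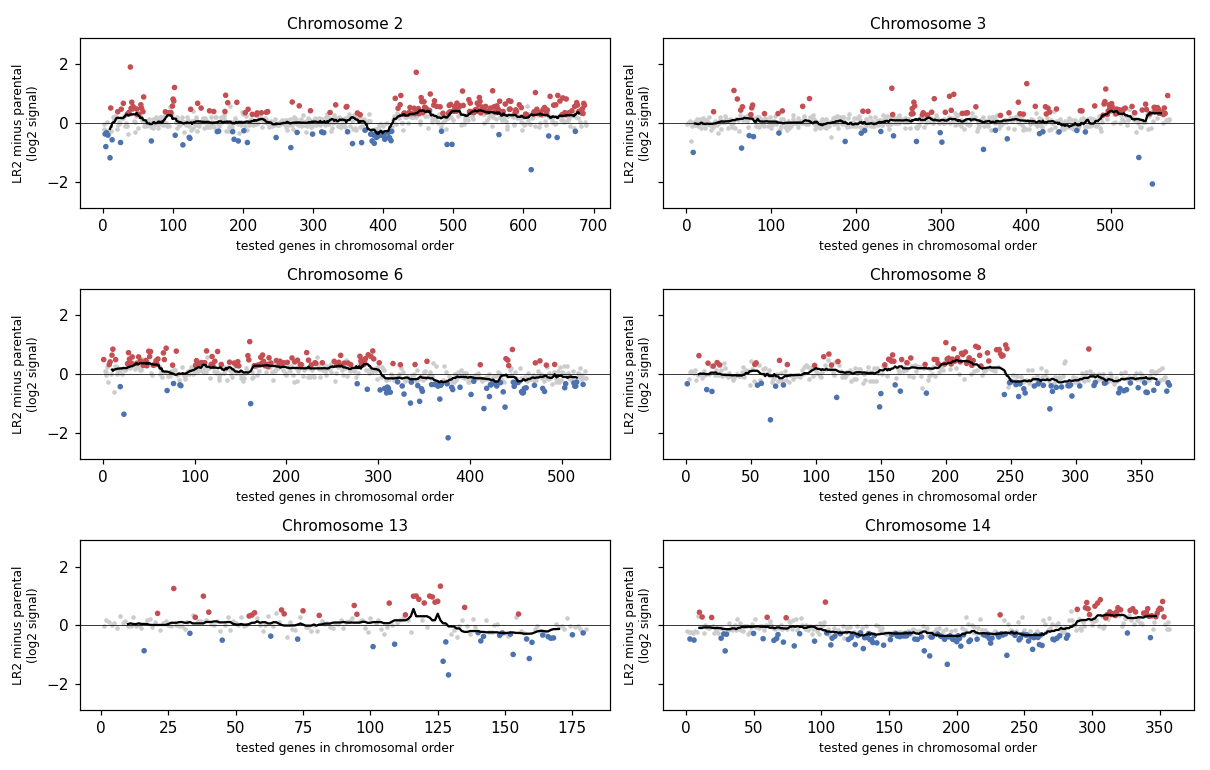
Tested genes of 6 chromosomes are placed in RefSeq order (x axis) with their mean LR2 minus parental difference (log2 signal, y axis); grey points were not called, red were called higher, blue lower, and the black line is the running median of 20 genes. Long plateaus above 0 are seen on chromosomes 2, 6 and 8 and below 0 on chromosome 14, where 29.4% of tested genes were called lower.

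Many of the leading genes differed between LR2 and the other resistant line as well as between LR2 and parental cells. In a limma model over all 8 arrays, 1328 genes (12.9%) were higher and 757 (7.36%) lower in LR2 than in LR3. Of the 20 largest rises over parental cells 17 were also called against LR3, all but AKR1C2, BCAS1 and SPRY2. Some of the 17 were also higher in LR3 than in parental cells, among them AKR1C1, AKR1C3, PRSS3 and DHRS9. PRSS3 was higher there by 1.21 untreated and 1.14 with ceritinib, and LR2 exceeded LR3 by 0.45. By contrast, 6 of the 20 were below parental cells in both LR3 arrays. Of the 20 largest falls 13 were called against LR3, but not all in 1 direction. LR2 was below LR3 for PAEP, TNNT1, NEURL1B, ECM1, THBS1 and SLFN11. For S100A9, BPIFA1, GPC6, TNC, ADGRL2, MUC4 and SOBP it was above LR3, which lay further below parental cells than LR2 did. The leading genes were picked for extreme values on the same LR2 arrays, which favours a difference from LR3, so the counts only describe them. SPRY2 was not called (0.99 ± 0.36, limma adjusted p = 0.0952), though it was at 9.26 (untreated) and 9.42 (ceritinib) in LR2 against 8.17 and 8.33 in LR3. IGFL1, CADM1, GABRB1, MEF2C, GLCCI1, POU2AF3 and LAMB3 were the falls without a call between LR2 and LR3. LR2 and LR3 share their parental arrays in the line comparisons, so the levels are given side by side: CADM1 was at 5.29 and 5.89 and GABRB1 at 3.41 and 3.43 in LR3. As deposited 63.7% of the genes that differed between LR2 and LR3 were higher in LR2, against 53.5% with quantile normalization and 47.2% with median centring, so this split has no settled direction. The count was 710 without the LR3 ceritinib array, 917 without LR3 untreated, 1064 without LR2 untreated, 1276 without LR2 ceritinib and 1524 without LR2 crizotinib.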

How the data were processed

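RNA of 3 parental and 3 LR2 samples, with 2 LR3 samples for comparison, was measured on single-colour Affymetrix arrays. The deposited values are log2 signals of 49395 probe sets, made by the authors with RMA per the submitters' processing notes; which program ran RMA, and on which arrays jointly, is not given in the sources used here. No further scaling was applied.

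Of these probe sets, 102 were controls, 1832 had several symbols in the platform table and 2473 none. The other 44988 covered 18132 genes, each represented by its probe set of highest mean. A gene was tested when it exceeded 5.37, the 50th percentile, in at least 3 of the 6 arrays (10280 genes, 56.7%). limma 3.58.1 in R 4.3.3 fitted line and agent (2 residual and 5.02 prior degrees of freedom), with Benjamini-Hochberg adjustment over all tested genes and a threshold of 0.05. The fit was tested on simulated data. The number of arrays limits precision.

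The members and the 40 gene lists (1264 of 1361 genes matched) were chosen with earlier results of these data known, so list counts are descriptions, to be read against the share called over all genes. The rule for named genes took the 20 largest rises and falls among genes called with 1 sign in 3 of 3 pairs, up to 4 called members of each list, a fixed set of receptor, epithelial and ERK genes called or not, genes that crossed the floor, and the ends and up to 3 leading genes of a stretch; others complete a count of calls, or were chosen after their values were seen. Gene order and promoters came from RefSeq GRCh38.p14. Alternatives were all 8 arrays, no agent term, quantile or median scaling, other probe set rules and filters, an intensity trend and leaving out each pair or array.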

Additional observations from a re-analysis of the deposited data

Results flagged for a closer look

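LR2 and LR3 differed from each other in 2085 genes by the limma test of that difference over all 8 arrays. For 6 of the 20 largest rises of LR2, both LR3 arrays lay below their parental pair while LR2 lay above it, and LR2 exceeded LR3 by the same limma test. These rises were picked on the same LR2 arrays, which favours an excess over LR3. The difference was 2.55 for the ephrin receptor EPHB1, 2.24 for the secretoglobin SCGB3A1, 2.12 (2.115) for ELAPOR1, 2.09 for the forkhead factor FOXA3, 1.72 for the chemokine CXCL17 and 1.605 for the actin regulator WASF3, in log2 units. The ELAPOR1 and FOXA3 levels in parental and LR3 cells were below the floor.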

How the results depend on the processing

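The count for LR2 against parental cells kept within 1.5 times of 2091 with all 8 arrays, both scalings, the mean of probe sets, both filters and an intensity trend (1725 to 2401), and was 1201 without the agent term and 595 with plain-suffix probe sets only, which hold fewer genes. Leaving out a pair gave 0 to 49, and leaving out 1 of the 6 arrays in the 8-array fit, added after the data were seen, gave 1161 to 2032. Genes of 1 sign in every pair numbered 5579, and 1491 with plain-suffix probe sets. The count for LR2 against LR3 was 2085, 449 with plain-suffix probe sets, and 710 to 1524 with 1 array left out. The dependence on inhibitor gave 0 calls under each alternative run. No paired analysis by replicate number was possible because each line and agent had 1 array; the pairs by agent are the block of the reported fit. None of the 151 called genes named by the rule changed sign. Of these, 115 kept the call in all 6 fits without 1 array, where leaving out either crizotinib array gives the same fit. Of all 151, 43 lost the call without the agent term, 6 with quantile normalization and 3 with median centring.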
